A study of Mus musculus with 13 samples.

Results

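Homologous recombination copies an intact sister chromatid to mend a broken chromosome, and the Fanconi pathway removes crosslinks that stall replication forks. Mismatch repair corrects copying errors, and the checkpoint kinases hold the cycle while such lesions are present. Many of the genes are transcribed mainly in S phase and G2, and rapidly dividing pluripotent stem cells are known for high levels of them. A set of 33 genes of these pathways was followed here through the reprogramming of mouse embryonic fibroblasts. The genes were chosen by symbol, with earlier results of these data known. Counts of members called are therefore set beside the share over all clusters as a description, and are no test of the set. Of the genes, 28 had a row with their single symbol, 1 row each, among 23332 transcript clusters. Xrcc2, Fancf, Fancd2, Lig1 and Atr were not analysed here.

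The 13 Affymetrix exon arrays held total RNA of 2 induced pluripotent stem (iPS) cell cultures, of fibroblasts given doxycycline (Dox) at 1.5 µg per ml, and of untreated fibroblasts, with 1 array a condition. The iPS arrays were of 6C-secondary and 6C-primary cells, both labelled as independent of Dox, although Dox is also named as their agent. The secondary iPS culture carries the label of day 30. The Dox-treated arrays were of 6C-secondary fibroblasts at days 2, 5, 8, 11, 16 and 21 and of 1B-secondary fibroblasts at day 5. A further 1B array was taken after 5 days with Dox and 5 days without it. The untreated arrays were of parental fibroblasts, of 6C at day 0 and of 1B at day 0. In 6C and 1B, Dox turns on reprogramming factors through an inducible promoter, each label names a single line, and both iPS arrays come from 6C. All cells were grown in mouse embryonic stem cell medium. No label names separate cultures of a condition, so p-values measure the spread between these arrays. Levels are deposited log2 values, and a difference of 1 is 2-fold.

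As a check of the labels, the mean level of 10 pluripotency markers was 11.47 and 11.46 in secondary and primary iPS cells. It was between 5.81 and 9.64 with Dox and between 4.79 and 5.65 in untreated fibroblasts. The list holds Pou5f1, which went from 4.74 in untreated 6C cells to 12.57 by day 2, the largest such change among the 10. Only Pou5f1 passed the test of Dox-treated against untreated cells described below, so the mean with Dox rests in part on this gene. The mean of 12 fibroblast markers was 10.00 in secondary and 7.20 in primary iPS cells, 7.77 to 12.25 with Dox and 11.22 to 12.58 in untreated cells, so the secondary iPS array held more fibroblast transcript than the primary one. The mean of 11 macrophage markers was 7.27, 8.02 and 6.96 in 6C at days 5, 8 and 11 and no higher than 6.29 on the other arrays. Markers of epithelium (7 genes) lay at 8.52 and 8.83 in the iPS arrays, at 6.42 to 10.20 with Dox and at 5.39 to 5.77 without treatment. The part of these cells in the results below was not tested, and in bulk RNA fewer cells of a type and less RNA per cell cannot be told apart. The array names carry 4 prefixes, called array-name sets here: the primary iPS, parental and 6C day 2, 5, 11 and 16 arrays share one, 6C days 21 and 0 another, the 1B arrays the third, and secondary iPS and 6C day 8 the fourth. The names of the 6C day 8 and day 0 arrays speak of day 9 and of day 2 without Dox, and the sample labels were followed.

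The end point of reprogramming was set against its start by comparing iPS cells with untreated fibroblasts. In iPS cells 22 of the 28 repair genes rose and none fell, by limma at an adjusted p under 0.05 and at least 2-fold, where 5.44% of all clusters and 7.38% of those with 1 symbol were called higher. The median difference was 2.44 over the 28 genes and -0.025 over all clusters. Every one of the 28 lay higher on both iPS arrays than on the 3 untreated arrays, which held for 22.2% of all clusters. The members that rose included all 4 genes of the BRCA core, all 5 accessory factors of strand exchange, both Blm and Exo1, and all 3 mismatch repair genes. Of 7 Fanconi core complex genes 3 rose.

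**Figure D1:**
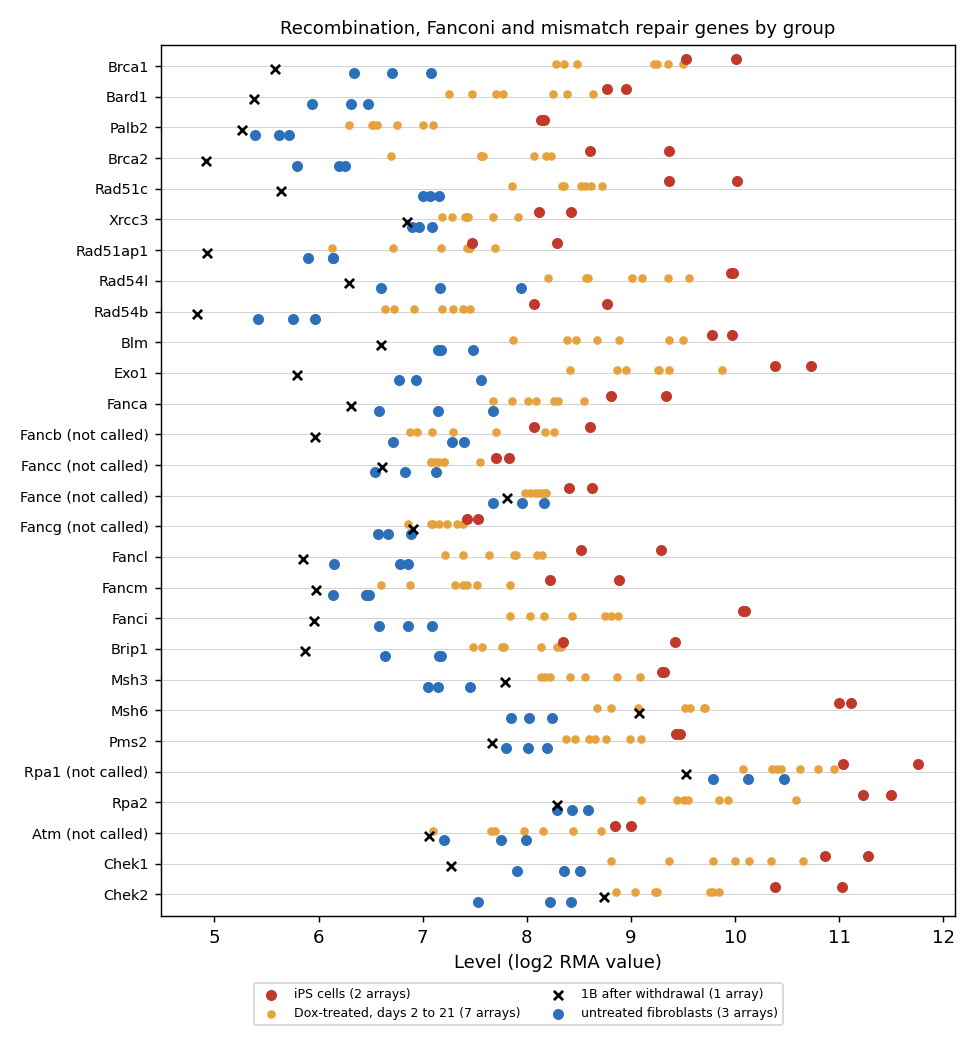
Level of each of the 28 genes (log2 RMA value, horizontal) on the 2 iPS arrays (red), the 7 arrays with Dox (orange), the 1B array after withdrawal (cross) and the 3 untreated arrays (blue); each point is 1 array. In every row the red points lie to the right of the blue ones, and in most rows the orange points lie between them.

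Brca1, the ubiquitin ligase that promotes resection of broken ends, stood at 10.01 and 9.52 in secondary and primary iPS cells, against 6.34, 7.08 and 6.70 in parental, 6C and 1B fibroblasts. Its difference was 3.06 (SE 0.33, adjusted p = 0.0104), an 8.33-fold rise. Bard1, its obligate partner, stood at 8.77 and 8.95 in iPS cells, against 6.48, 5.94 and 6.31 in the fibroblasts (difference 2.62, SE 0.28, adjusted p = 0.00997). The partners thus moved by like amounts, with gaps between the groups wider than the spread within either. Palb2, which bridges Brca1 to Brca2, had 8.13 and 8.17 in iPS cells, against 5.62, 5.72 and 5.39 in untreated cells (difference 2.58, SE 0.24, adjusted p = 0.00820). Brca2, a mediator of strand exchange, had 8.61 and 9.37, against 6.20, 6.25 and 5.79 (difference 2.91, SE 0.33, adjusted p = 0.0120). The iPS arrays were nearly equal for Palb2 and 0.76 apart for Brca2, where the primary array was the higher.

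Among the accessory factors of strand exchange, Rad51c stood at 10.02 and 9.37 in iPS cells, against 7.005, 7.08 and 7.16 in untreated fibroblasts (difference 2.61, SE 0.29, adjusted p = 0.0113). Xrcc3, its binding partner, had 8.42 and 8.12, against 6.97, 6.89 and 7.09 (difference 1.29, SE 0.25, adjusted p = 0.0360). The partners differed in size of change, Rad51c at 6.11-fold and Xrcc3 at 2.44-fold. Rad54l, a motor protein that helps strand invasion, had 9.98 and 9.96 in iPS cells, against 6.60, 7.94 and 7.17 (difference 2.73, SE 0.42, adjusted p = 0.0240). Its relative Rad54b had 8.77 and 8.07, against 5.42, 5.97 and 5.76 (difference 2.70, SE 0.33, adjusted p = 0.0142). Rad51ap1, which stimulates strand invasion, had 7.48 and 8.29, against 5.90, 6.14 and 6.14 (difference 1.82, SE 0.32, adjusted p = 0.0315). For Rad54l the untreated arrays were spread over more than 2-fold, with 6C day 0 the highest, whereas for Rad51ap1 the spread lay in the iPS arrays.

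Exo1, the exonuclease that resects breaks and also excises mismatched strands, had the largest difference of the 28. It stood at 10.73 and 10.38 in iPS cells, against 6.77, 7.56 and 6.94 in untreated fibroblasts (difference 3.47, SE 0.33, adjusted p = 0.00821), which is 11.06-fold. Blm, the helicase that dissolves joined chromatids, had 9.97 and 9.78, against 7.15, 7.17 and 7.49 (difference 2.61, SE 0.25, adjusted p = 0.00845). Neither gene had an untreated array within 2 log2 units of an iPS array.

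Fanci, partner of the protein that the Fanconi core complex ubiquitinates, had 10.09 and 10.07 in iPS cells, against 6.58, 6.86 and 7.09 in untreated cells (difference 3.24, SE 0.27, adjusted p = 0.00577). Brip1, a helicase that binds Brca1, had 9.42 and 8.35, against 6.64, 7.18 and 7.16 (difference 1.89, SE 0.40, adjusted p = 0.0445). Brip1 was the only member more than 2-fold apart between the iPS arrays, with the secondary array 1.07 above the primary one. Within the core complex itself, Fancl, its ubiquitin ligase subunit, had 9.29 and 8.52, against 6.78, 6.14 and 6.86 (difference 2.31, SE 0.37, adjusted p = 0.0256). Fancm, the translocase that anchors the complex to DNA, had 8.22 and 8.88, against 6.46, 6.13 and 6.49 (difference 2.19, SE 0.31, adjusted p = 0.0198). Fanca had 8.80 and 9.34, against 6.58, 7.67 and 7.15 (difference 1.94, SE 0.40, adjusted p = 0.0409). With quantile normalization Fanca missed the threshold.

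The other 4 core complex genes did not pass the test. Fancb differed by 1.20 (SE 0.33, adjusted p = 0.0770) and Fancc by 0.93 (SE 0.28, adjusted p = 0.0939). Fancg differed by 0.77 (SE 0.25, adjusted p = 0.108), and Fance, which links the complex to its substrate, by 0.59 (SE 0.27, adjusted p = 0.230). These were the 4 smallest differences of the 28. Differences within a complex, such as between Fancl and Fance, were not tested.

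In mismatch repair, Msh6, the subunit that recognises single mismatches, stood at 11.11 and 11.00 in iPS cells, against 7.85, 8.24 and 8.02 in untreated fibroblasts (difference 3.02, SE 0.25, adjusted p = 0.00595). Msh3, the alternative subunit for larger loops, had 9.30 and 9.32, against 7.15, 7.05 and 7.45 (difference 2.09, SE 0.25, adjusted p = 0.0140). Pms2, the endonuclease subunit, had 9.47 and 9.43, against 8.19, 7.80 and 8.01 (difference 1.45, SE 0.25, adjusted p = 0.0296). For each of these genes the iPS arrays lay closer together than the untreated ones. The rise of Msh6 was 8.11-fold, and those of Exo1, Fanci and Brca1 were the only larger ones among the 28.

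Rpa2, a subunit of the protein that coats single-stranded DNA, had 11.50 and 11.22 in iPS cells, against 8.29, 8.43 and 8.59 in untreated cells (difference 2.92, SE 0.25, adjusted p = 0.00633). Its large subunit gene Rpa1 had 11.76 and 11.04, against 9.79, 10.13 and 10.47 (difference 1.27, SE 0.35, adjusted p = 0.0768), and did not pass. Subunits of one complex were therefore called apart, but the difference between them was not tested. Chek1, the checkpoint kinase of stalled forks, had 11.27 and 10.86, against 7.91, 8.51 and 8.36 (difference 2.81, SE 0.30, adjusted p = 0.0107). Chek2, the kinase of double-strand breaks, had 11.02 and 10.38, against 7.53, 8.22 and 8.43 (difference 2.64, SE 0.38, adjusted p = 0.0207). Atm, the kinase upstream of Chek2, had 8.85 and 9.00, against 7.76, 7.99 and 7.21 (difference 1.27, SE 0.31, adjusted p = 0.0606), and was not called. Thus both effector kinases rose, and Atm missed the threshold.

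The calls, though not the size of the differences, depended on single arrays: 0 members were called without the primary iPS array, 4 without 1B day 0, 11 without the parental array, and 14 without either 6C day 0 or the secondary iPS array, while the median difference stayed between 2.30 and 2.53. Within the array-name set that holds both groups, the primary iPS array lay above the parental one for 28 of 28 members, at least 2-fold for 25 (14.1% of all clusters), with a median difference of 2.45.

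The promoter windows of the members were searched for the E2F-type words TTTCCCGC, TTTCGCGC, TTTGCCGC and TTTGGCGC on both strands. E2F proteins are the transcription factors of S phase entry. RefSeq promoter windows of GRCm38.p6, from 250 bases before to 50 after a start site, were at hand for 26 of the 28 members (28 windows). A word was found in 8 windows of 7 members, among 2.26% of all 32851 windows and 2.85% of the 21263 windows of protein-coding genes. The members' windows had a median GC content of 59.8%, against 56.3% in protein-coding windows. Bard1, Brca2, Chek2, Msh3, Msh6 and Rad51c were the called members with a word, Rad51c in both of its windows, and Fancg was the uncalled one. No word was in the windows of Brca1, Fanci or the other 17 genes, and Exo1 and Rad54b had no window. Other forms of the E2F-type words were not searched, so a window without a match may still hold one of those. The word CCAAT was in 19 of the 28 windows and in 38.2% of protein-coding ones, and TTTGAA was in 1 and in 16%. A match is a description of the letters and not a binding site. The 80 bases around each match of a called member are shown 5′ to 3′ on the gene's strand, with the words in capitals, to show where they lie and that they differ in orientation.
Bard1 (chr1:71103138-71103217, minus strand): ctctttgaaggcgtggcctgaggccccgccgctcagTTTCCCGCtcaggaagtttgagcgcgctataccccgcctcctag
Brca2 (chr5:150522417-150522496, plus strand): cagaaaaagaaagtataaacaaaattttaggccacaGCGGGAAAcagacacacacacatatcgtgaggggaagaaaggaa
Chek2 (chr5:110839795-110839874, plus strand): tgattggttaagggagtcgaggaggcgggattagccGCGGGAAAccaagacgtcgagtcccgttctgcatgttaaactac
Msh3 (chr13:92355162-92355241, minus strand): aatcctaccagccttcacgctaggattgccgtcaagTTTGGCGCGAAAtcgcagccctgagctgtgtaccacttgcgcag
Msh6 (chr17:87975020-87975099, plus strand): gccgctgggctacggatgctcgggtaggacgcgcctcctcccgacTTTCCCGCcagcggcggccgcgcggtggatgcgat
Rad51c, window nearer the lower coordinate (chr11:87404457-87404536, minus strand): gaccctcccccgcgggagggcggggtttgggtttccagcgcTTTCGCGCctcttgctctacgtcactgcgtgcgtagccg
Rad51c, other window (chr11:87404916-87404995, minus strand): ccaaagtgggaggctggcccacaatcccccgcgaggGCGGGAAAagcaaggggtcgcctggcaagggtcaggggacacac
In Msh3 the word TTTGGCGC and, on the opposite strand, TTTCGCGC overlap in 1 run. The matches of Bard1, Msh3, Brca2 and Chek2 began at bases -209, -202, -168 and -152 from the start site, and those of Rad51c and Msh6 lay within 20 bases of it.

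Cells still under Dox were then compared with untreated fibroblasts, 7 arrays against 3, which asks what changed before the iPS state was reached. With Dox 16 of the 28 members rose and none fell, where 2.31% of all clusters and 3.19% of those with 1 symbol were called higher. The median difference was 1.21 over the members and 0.00060 over all clusters. The 16 were all among the 22 that rose in iPS cells; both comparisons use the same untreated arrays. They were the 4 BRCA core genes, Rad51c, Rad54l, Rad54b, Blm, Exo1, Fancl, Fanci, Msh3, Msh6, Rpa2, Chek1 and Chek2. For 20 of the 28 members all 7 arrays with Dox lay above all untreated arrays, against 6.82% of all clusters.

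Brca1 ranged from 8.28 through a median of 9.23 to 9.50 with Dox (difference from untreated cells 2.21, SE 0.32, adjusted p = 0.0119), the largest rise of the set. Exo1 ranged from 8.41 through 9.26 to 9.87 (difference 2.05, SE 0.29, adjusted p = 0.0119). For both, the lowest array with Dox was higher than the highest untreated one, at 7.08 and 7.56. Bard1 ranged from 7.25 through 7.78 to 8.64 (difference 1.68, SE 0.30, adjusted p = 0.0235), Rad54l from 8.20 through 9.01 to 9.56 (1.67, SE 0.34, adjusted p = 0.0349) and Brca2 from 6.70 through 7.58 to 8.24 (1.62, SE 0.31, adjusted p = 0.0286). Chek1 ranged from 8.81 through 10.00 to 10.65 (1.61, SE 0.36, adjusted p = 0.0438) and Fanci from 7.84 through 8.44 to 8.88 (1.57, SE 0.26, adjusted p = 0.0181). The lowest of the 7 arrays was 6C day 5 for Exo1, Bard1, Rad54l, Chek1 and Fanci, day 8 for Brca2 and day 2 for Brca1. Blm (1.47, SE 0.33), Rad54b (1.37, SE 0.22), Rad51c (1.34, SE 0.19), Chek2 (1.34, SE 0.28), Msh3 (1.28, SE 0.23), Rpa2 (1.27, SE 0.28), Msh6 (1.26, SE 0.26), Fancl (1.16, SE 0.25) and Palb2 (1.10, SE 0.20) made up the rest, with adjusted p between 0.0119 and 0.0439.

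The members that did not pass included 6 of the 7 core complex genes. Rad51ap1 differed by 1.09 (adjusted p = 0.0897), Fanca by 0.97 (adjusted p = 0.0707), Fancm by 0.92 (adjusted p = 0.0807) and Brip1 by 0.92 (adjusted p = 0.0659). Pms2 differed by 0.70 (adjusted p = 0.0772), Xrcc3 by 0.49 (adjusted p = 0.148), Fancg by 0.45 (adjusted p = 0.135), Rpa1 by 0.39 (adjusted p = 0.341) and Fancc by 0.37 (adjusted p = 0.250). Fancb (0.35), Atm (0.31) and Fance (0.17) had adjusted p of 0.614, 0.645 and 0.541. For these last 3, and for Rad51ap1, Fanca, Fancg, Rpa1 and Fancc, not all arrays with Dox lay above the highest untreated array.

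Within the array-name sets the median difference with Dox was 1.35 (6C day 21 against day 0), 1.32 (4 arrays with Dox against the parental one) and 1.24 (1B day 5 against day 0), but with the set as a block 3 members were called. Over all clusters 538 were called higher and 37 lower, against 290 and 65 with quantile normalization, where 8 members were called, and 336 and 67 with centring on the array median, where 9 were. Without the parental array or without 1B day 0 there were 0, without 6C day 0 3, without 6C day 11 or day 21 6, without day 16 8, without day 8 9 and without 1B day 5 10.

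The 6C series asked when the genes moved. On the day 2 array all 28 members lay above day 0, as did 66.5% of all clusters, and 13 were at least 2-fold higher, against 11.9% of all clusters; with 1 array a day such steps have no test. The median change over days 2, 5, 8, 11, 16 and 21 was 0.93, 0.61, 0.72, 1.23, 1.52 and 1.35, and in secondary iPS cells it was 2.30. Over all clusters it was 0.25 at day 2, 0.20 at day 5 and 0.02 to 0.13 later, and the day 0 array had the lowest median of the 13. On these arrays the rise was not even, with an early step and a lower level at days 5 and 8. A rise to day 16, a lower level at day 21 and a last step into the iPS state followed. Days 0 and 21 share an array-name set, days 2, 5, 11 and 16 another, and day 8 and the secondary iPS array a further one. Steps between sets, such as that from day 0 to day 2, cannot be told apart from a difference between the sets. Over the 25 members that ended at least 2-fold higher, the median share of the change from day 0 to iPS cells was 41.2% by day 2, 26.9% by day 5, 51.4% by day 11 and 53.9% by day 21. Each share holds the day 0 array in both of its terms. The like shares over all clusters were not counted, so these are a description only.

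**Figure D2:**
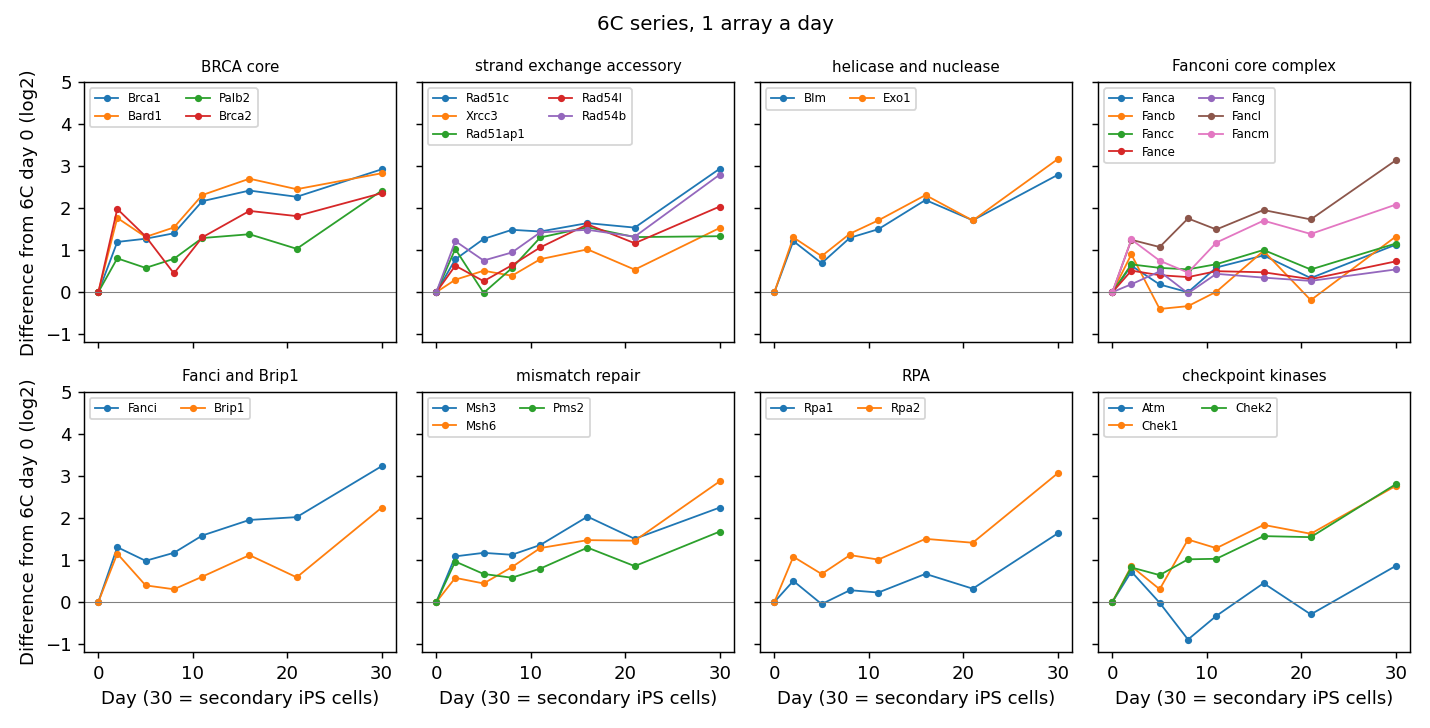
Difference from the 6C day 0 array (log2, vertical) against day (horizontal) for the 8 role groups; day 30 is the secondary iPS array and each point is 1 array. Most lines step up at day 2, dip at day 5 or 8 and have their highest point at day 30.

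Brca2 and Bard1 made the largest early steps. Over days 0, 2, 5, 8, 11, 16 and 21 and then in secondary iPS cells, Brca2 stood at 6.25, 8.24, 7.58, 6.70, 7.56, 8.19, 8.06 and 8.61. Bard1 was 5.94, 7.71, 7.25, 7.48, 8.25, 8.64, 8.39 and 8.77 at the same points. By day 2 Brca2 had covered 84.0% of its change and Bard1 62.4%, but Brca2 then lost most of it by day 8. At day 5, 23 of the 28 members lay below day 2, as did 50.3% of all clusters, and Rad51ap1 (-1.05) and Fancb (-1.30) were at least 2-fold lower, where 8.54% of all clusters were. Rad51ap1 stood at 6.14, 7.17, 6.13 and 6.72 at days 0, 2, 5 and 8, so its day 5 array was back at the day 0 level. Fancb and Atm lay furthest below day 0 on the middle days: Fancb had 7.28, 8.18, 6.88 and 6.94 at days 0, 2, 5 and 8, and Atm 7.99, 8.72, 7.97 and 7.10. Macrophage markers were high on the day 5, 8 and 11 arrays, as given above.

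By limma's F test over a polynomial of day of degree 3, 7 of the 28 members were called, each ending higher, where 3.87% of all clusters and 5.36% of those with 1 symbol were called as ending higher. These were Rad51c (fitted change at day 30 of 2.85, adjusted p = 0.0175), Msh6 (2.80, adjusted p = 0.0224), Chek2 (2.62, adjusted p = 0.0295), Brca1 (2.68, adjusted p = 0.0345), Fancl (2.90, adjusted p = 0.0402), Rpa2 (2.81, adjusted p = 0.0409) and Fanci (2.90, adjusted p = 0.0415). The curves of Brca1, Rad51c and Fancl first lay 2-fold above day 0 at day 5, that of Fanci at day 8, that of Msh6 at day 11 and those of Rpa2 and Chek2 at day 16. Brca1 stood at 7.08, 8.28, 8.35, 8.48, 9.25, 9.50, 9.35 and 10.01 over the 8 arrays, and Rad51c at 7.08, 7.86, 8.34, 8.56, 8.52, 8.72, 8.61 and 10.02. Brca1 thus had 77.6% of its change by day 21 and Rad51c 52.3%, with a last step of 1.40 for Rad51c. Msh6 stood at 8.24, 8.81, 8.68, 9.07, 9.52, 9.71, 9.70 and 11.11, with 50.8% of its change by day 21. Rpa2 had 46.0% and Brip1 26.1% by then.

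Of the others, 10 more had an unadjusted p under 0.05, so that 17 of 28 did in all, against 24.6% of all clusters. No member was called without the day 0, day 11 or iPS array, 1 was without day 5 or day 21, and 2 without day 8 or day 16; with the array-name set as a block 0 were called and the median fitted change was 1.18, in place of 1.94.

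Day 16 was the highest array with Dox for 16 of the 28 members and 12.4% of all clusters, and it lay above day 21 for 27, where it did for 61.5% of all clusters. From day 21 to the iPS state all 28 members lay higher again on both iPS arrays (54.2% and 50.8% of all clusters), 15 at least 2-fold on the secondary iPS array (9.04% of all clusters) and 9 on the primary one (11.0%). Both iPS arrays lay above every array with Dox for 26 of the 28 members, against 9.37% of all clusters; Rad51ap1 and Fancb were the exceptions. The largest last steps on the secondary array were those of Brip1 (1.66), Rpa2 (1.66), Fancb (1.51) and Rad54b (1.48), and on the primary array those of Palb2 (1.42), Rpa2 (1.38), Fancm (1.36) and Fanca (1.33). Rad51ap1 stood at 7.46 at day 21 and 7.48 in secondary iPS cells, a difference of 0.02. Day 21 shares no array-name set with day 16 or with either iPS array. The steps from day 16 to day 21 and on to iPS cells therefore cannot be told apart from a difference between the sets.

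Proliferation genes were measured beside the members. The mean level of 20 mitosis genes was 10.65 and 10.62 in iPS cells, 9.46 to 10.40 with Dox and 8.18 to 9.33 in untreated fibroblasts. That of 27 S phase genes was 10.31 on both iPS arrays, 9.04 to 9.89 with Dox and 7.96 to 8.59 in untreated cells, and that of the 28 members was 9.40 and 9.27, 7.84 to 8.71 and 7.02 to 7.23. All 3 lists had their day 5 value below their day 2 value in 6C and their day 16 value above their day 21 value. In secondary and primary iPS cells against 6C day 21, the mean was 9.40 and 9.27 against 8.38 for members, 10.31 and 10.31 against 9.53 for S phase genes, and 10.65 and 10.62 against 10.27 for mitosis genes. The part of proliferation in the members' rise was not tested.

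**Figure D3:**
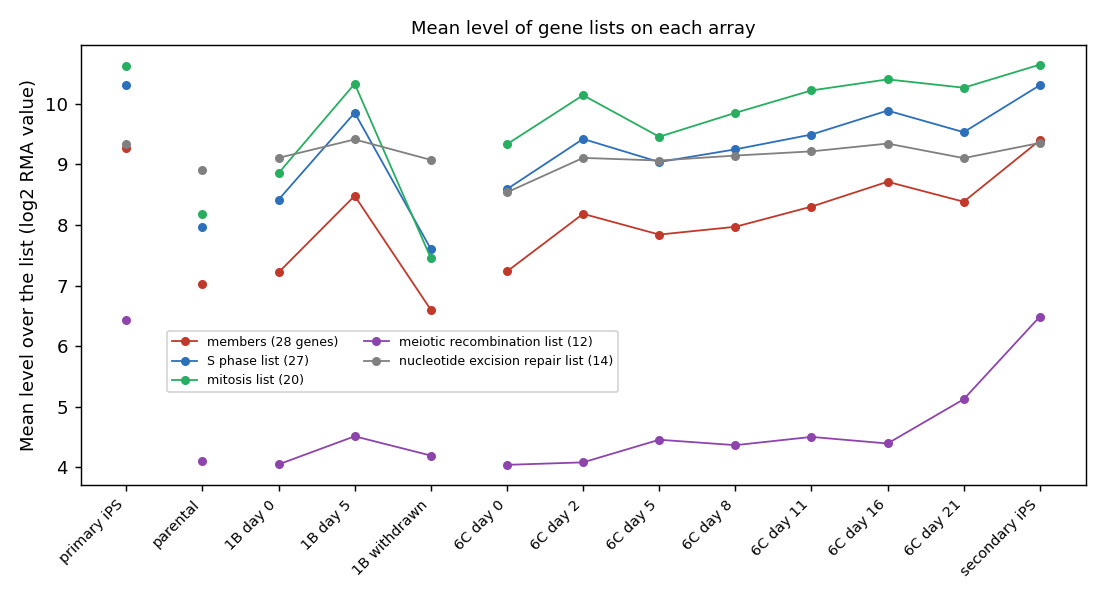
Mean level (log2 RMA value, vertical) of the 28 members and of 4 other gene lists on each of the 13 arrays (horizontal); lines join arrays of one line in order of time, and each point is 1 array. Members, S phase and mitosis genes share local peaks at 1B day 5 and 6C days 2 and 16 and the low after withdrawal. The means of these lists and of the meiotic list are highest on the iPS arrays.

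Further repair genes outside the set were counted from lists. Of all clusters with 1 symbol, 7.38% were called higher in iPS cells and 3.19% with Dox. Of 39 other recombination, Fanconi and mismatch repair genes 17 were called higher in iPS cells and none lower, with a median difference of 1.15. With Dox 9 were called higher. The 3 largest rises were those of Rif1, which restrains resection (3.96, SE 0.31), the nuclease-helicase Dna2 (3.39, SE 0.33) and the meiotic recombinase Dmc1 (2.97, SE 0.27), with adjusted p of 0.00548, 0.00851 and 0.00790. In base excision repair 5 of 14 rose, led by the uracil glycosylase Ung (3.11, SE 0.26), Parp1 (2.75, SE 0.24) and the flap nuclease Fen1 (2.15, SE 0.29). In end joining 2 of 8 rose, the Ku subunit genes Xrcc5 (2.10, SE 0.34) and Xrcc6 (1.74, SE 0.29). In nucleotide excision repair 2 of 14 rose, Ercc8 (1.68, SE 0.37) and Gtf2h4 (1.54, SE 0.29), with a list median of 0.48. No gene of these lists was called lower. Some lay lower without passing, and Ercc1 of nucleotide excision repair differed by -1.60 (SE 0.41, adjusted p = 0.0649). Of S phase genes 20 of 27 rose, led by Mcm10 (3.30), Gins1 (3.09) and Mcm5 (3.04), and of mitosis genes 10 of 20, led by Ttk (2.69), Bub1 (2.68) and Kif11 (2.45). With Dox 16 S phase and 10 mitosis genes rose.

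Genes of meiotic recombination, whose products work with the members in germ cells, were followed beside them. Of 12 measured, which include Dmc1, 9 rose in iPS cells, where 7.38% of all clusters with 1 symbol did. The median difference over the 12 was 2.74 in iPS cells and 0.32 with Dox. The list's mean was 6.49 and 6.43 on the iPS arrays, between 4.08 and 5.12 with Dox and between 4.04 and 4.11 in untreated cells. Hormad1, a chromosome axis gene, was higher by 5.44 (SE 0.44), the synaptonemal complex gene Sycp3 by 4.57 (SE 0.27) and Tex11 by 3.47 (SE 0.38). Over the 7 arrays with Dox they differed by 0.26, 0.54 and 0.33. Dmc1 differed by 0.26 there as well. The list's highest mean with Dox, 5.12, was on the 6C day 21 array. There Hormad1, Sycp3, Tex11 and Dmc1 stood at 7.04, 4.83, 3.84 and 5.07, against 4.91, 2.375, 3.54 and 4.24 at 6C day 0. Whether these genes and the members differ in course was not tested.

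The shared early change was taken from day 5 against day 0 in both lines. By limma with line as a block no member was called (lowest adjusted p = 0.605) and 0% of all clusters were, with 1 residual degree of freedom; 8 members had an unadjusted p under 0.05, where 5.43% of clusters had one and were higher. The median difference was 0.93, and 27 of 28 members were above 0, as were 53.7% of all clusters. Line by line, 16 members were at least 2-fold higher at day 5 in 1B (9.49% of all clusters) and 6 in 6C (14.6%), with median changes of 1.24 and 0.61. Brca1 changed most in 1B, with 9.23 at day 5 against 6.70 at day 0, and with 8.35 against 7.08 in 6C. At day 5 itself, 5 members were at least 2-fold higher in 1B than in 6C (11.3% of all clusters), which were Chek1 (10.65 against 8.81), Blm (9.50 against 7.86), Rpa2 (10.58 against 9.10), Rad51ap1 (7.43 against 6.13) and Rad54l (9.36 against 8.20). The mean of the fibroblast markers was 7.77 on the 1B day 5 array and 12.25 on that of 6C, and their part in this was not tested.

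Withdrawal of Dox in 1B asked which of these levels lasted. After 5 days without Dox, 23 of the 28 members were at least 2-fold below the day 5 array, where 11.8% of all clusters were, and all 28 were below it, where 48.1% of all clusters were. The median change was -1.79. Of the 16 members that had been at least 2-fold higher at day 5, 13 ended below day 0, and the like share over all clusters was not counted. In all, 24 members lay below day 0 after withdrawal, as did 51.8% of all clusters, and 9 of them at least 2-fold, as did 7.41% of all clusters. The withdrawn array was the lowest of all 13 for 22 of the 28 members and for 5.56% of all clusters. Over 1B day 0, day 5 and withdrawal, the fibroblast marker mean was 11.22, 7.77 and 10.08 and the epithelial one 5.77, 8.87 and 7.72. The pluripotency mean was 5.21, 6.83 and 5.46 and the macrophage one 6.00, 5.28 and 5.75. In the pluripotency list Pou5f1 (5.58, 13.16 and 6.41) and Nanog (5.67, 10.82 and 6.55) changed most, so its mean rests largely on them. The part of these cells in the change was not tested. With 1 array a condition none of this has a test.

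**Figure D4:**
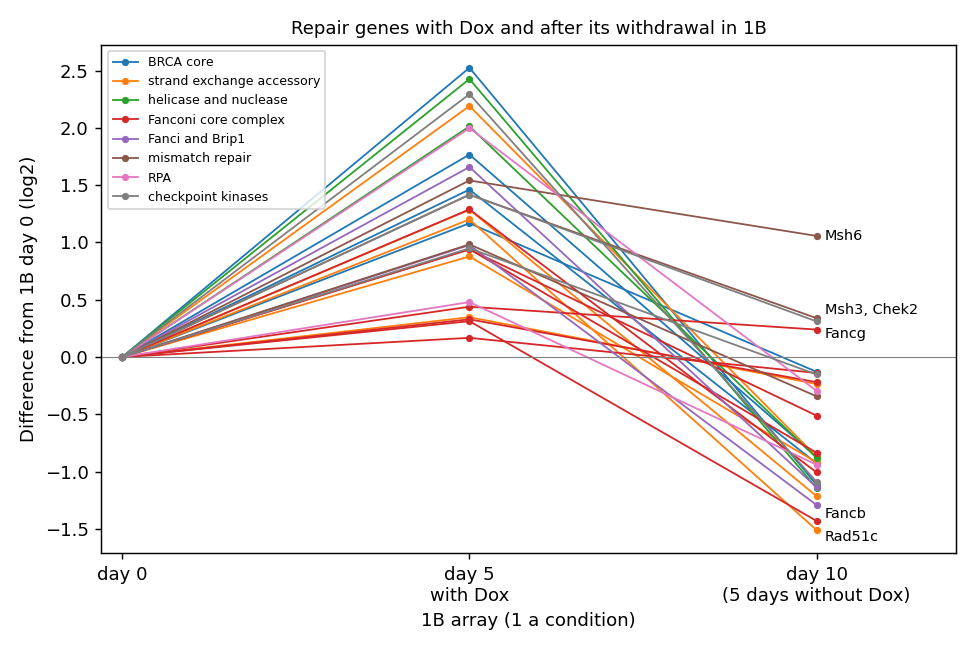
Difference from the 1B day 0 array (log2, vertical) at day 5 with Dox and after 5 further days without it (horizontal), 1 line a gene, coloured by role, 1 array a point. Most lines cross below 0 after withdrawal, and Msh6, Msh3, Chek2 and Fancg end above it.

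Over 1B day 0, day 5 and withdrawal, Brca1 stood at 6.70, 9.23 and 5.59, and Exo1 at 6.94, 9.37 and 5.80. Chek1 was 8.36, 10.65 and 7.27. These were the largest falls from day 5, of -3.64, -3.57 and -3.39. Rad51c was 7.16, 8.36 and 5.64, which put it lowest of all members relative to day 0 (-1.51), followed by Fancb (-1.43), Brip1 (-1.29) and Rad51ap1 (-1.22). Exo1 (-1.14), Fanci (-1.14), Brca1 (-1.12), Chek1 (-1.09) and Fancl (-1.01) were the other members at least 2-fold below day 0. Each of these 9 had been above day 0 at day 5, as had all 28 members.

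Msh6 kept most of its change: over the same arrays it stood at 8.02, 9.57 and 9.08, so that 68.6% of the day 5 change remained. It was the only one of the 28 members still at least 2-fold above day 0. Over all clusters 788 of 23332 were, and 3.02% of those with 1 symbol, which is near the members' share. Msh3 was 7.45, 8.87 and 7.79, with 23.9% remaining, and Chek2 was 8.43, 9.84 and 8.74, with 21.9%. Fancg was the fourth member above day 0, at 6.67, 7.10 and 6.90, with 54.5% of a change of 0.44 remaining. Rpa2 was 8.59, 10.58 and 8.29 and Palb2 5.39, 6.56 and 5.26, both close to their day 0 levels. The mean of the S phase genes was 8.42, 9.85 and 7.60 on these arrays, and that of the mitosis genes 8.86, 10.33 and 7.45, so that both also ended below day 0, while nucleotide excision repair genes were at 9.11, 9.41 and 9.07.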

How the data were processed

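Per the submitters' processing notes, the authors summarised 13 mouse exon arrays by gene-level RMA in Affymetrix Expression Console with mm9, and deposited the values on a log2 scale (the base was read from their range), with no versions given. RMA adjusts background, scales arrays to each other and compresses low values, so levels of different genes are not compared. The platform annotation gave 14996 clusters 1 symbol, 1019 several and 7317 none. Members and gene lists were chosen with earlier results of these data known. With limma 3.58.1 in R 4.3.3, all 23332 clusters were fitted in each comparison: iPS against untreated (2 against 3 arrays), Dox-treated against untreated (7 against 3), a polynomial of degree 3 over 8 arrays of 6C (direction by the fitted change at day 30), and day 5 against day 0 with line as a block (4 arrays). A call was an adjusted p (Benjamini-Hochberg) under 0.05 together with a 2-fold difference, for the curve at any sampled day. Pairs of single arrays were compared without a test. The fits were tested on simulated data. Array medians were 6.34 to 6.67, lowest in 6C at day 0, and the number of arrays limits the precision. Genes named from the other lists were the 3 largest called differences in iPS cells per list and direction. Scaling, filtering, moderation, curve and block were varied, and each array was left out in turn.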

Additional observations from a re-analysis of the deposited data

Results flagged for a closer look

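At day 5 of Dox the changes of 4 members had opposite signs in the lines, though 3 of those in 6C were close to 0; the difference was not tested, with 1 array a condition. The change in 1B minus that in 6C was 1.30 for Rad51ap1, 0.97 for Atm, 0.71 for Fancb and 0.53 for Rpa1. Their changes in 6C were -0.02, -0.02, -0.40 and -0.05, so that all 4 lay within 2-fold of day 0 there. Among the 7 arrays with Dox, 6C day 16 stood apart for Fancc, at 7.55 with the next array at 7.21, a gap of 0.73 of the whole range, where Dixon's critical value is 0.568. Among replicates chance flags about 1 group in 20, and 28 genes were examined. These 7 arrays differ in day or line and are not replicates, and 6C day 16 was the highest of them for 16 members.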

How the results depend on the processing

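No direction over the members reversed under any alternative run. Of the counts of members called, that for Dox-treated against untreated cells (16) fell to 8 under quantile normalization, to 9 under centring and to 3 under a block for the array-name set, and was 0 to 17 with 1 array left out. That for iPS against untreated cells (22) was 21 to 25 with the scalings, moderation and filter, 23 in a fit of all arrays with the array-name set as a block, chosen after seeing the data, and 0 to 14 with 1 array left out. That for the 6C series (7) was 16 with the filter on low values, which tests fewer clusters (11767), 0 with the array-name set as a block and 0 to 5 with 1 array left out. The median difference over members then lay between 2.30 and 2.53 for iPS cells, 1.12 and 1.29 for Dox, and 1.05 and 2.25 for the 6C curve, the lowest without the iPS array; with the set as a block the curve gave 1.18. Members below day 0 after withdrawal numbered 16 at a 1.5-fold limit, in place of 9. Over all clusters 775 were called lower in iPS cells, against 1299, 1295 and 1473 with quantile normalization, centring and the filter, and at day 5 centring called 334 higher and 259 lower in place of 0, no member among them. Centring shifted the median of all clusters by -0.13 in the 6C series. The cause of these changes was not tested, apart from fewer arrays. The array-name set as a random block was not run for iPS cells, since no correlation could be estimated, and arrays could not be left out at day 5, where no residual degree of freedom remained. Each member had 1 row, so the other choice of row changed nothing. The day 5 comparison had the line as a block, and the labels give no replicate numbers that could pair arrays in the others.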
